A study of Homo sapiens with 4 samples.

Results

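The genes described here encode the ligands, receptors, SMAD mediators and antagonists of BMP and TGF-beta signalling, together with proteins of the same pathway that act in latency, proteolysis and the matrix. They were chosen by symbol from a list of 57 genes, and all 57 were found among the 35606 genes of the count table. RNA from 4 libraries of K562 cells was sequenced, of which 2 are labelled JAZF1-SUZ12 and 2 mock. K562 is an established human cell line from chronic myelogenous leukaemia that expresses fetal and embryonic globins. In the fusion JAZF1-SUZ12, found in endometrial stromal sarcoma, part of JAZF1, a partner of the NuA4/TIP60 acetyltransferase, is joined to SUZ12, a core subunit of Polycomb repressive complex 2. How the fusion was delivered, what the mock cells received, whether a culture was 1 clone and whether numbered libraries came from separate cultures are not given in the sources used here. The p-values therefore measure only the spread between these libraries, which may be technical. The comparison asks which genes of the pathway differ in level between cells with and without the fusion.

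Ligands of the TGF-beta superfamily are secreted as dimers and bind pairs of type I and type II serine/threonine kinase receptors. TGF-beta, activin and nodal receptors phosphorylate SMAD2 and SMAD3, whereas BMP receptors phosphorylate SMAD1, SMAD5 and SMAD9. Phosphorylated SMADs enter the nucleus with SMAD4, and SMAD6 and SMAD7 act as inhibitory SMADs. In the erythroid lineage the pathway is known through activin A, also named erythroid differentiation factor, and through BMP6, which controls the iron hormone hepcidin from the liver. Many genes of developmental signalling, BMP ligands and antagonists among them, are known targets of Polycomb in other cells.

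The libraries held between 17260936 and 24423028 counts. JAZF1 had 12 and 27 counts in mock against 574 and 731 with JAZF1-SUZ12, and SUZ12 had 2781 and 2798 counts in mock against 4754 and 6582 with JAZF1-SUZ12, so both partner genes were higher in the libraries that bear the fusion's name. The source label names uterus, but erythroid markers were abundant, with HBG2 at 68543 counts or more in every library. Of 8 erythroid markers, HBZ, ALAS2, HBG1 and TFRC rose (edgeR, log2 fold changes 0.86, 0.68, 0.21 and 0.16), and the 8 summed to between 9512 and 9815 CPM in mock and between 11160.0 and 11282 CPM in JAZF1-SUZ12 libraries. Of 8 stromal or uterine markers, LUM was at 0 counts in every library, COL3A1 never exceeded 3, and the 8 summed to between 24.6 and 26.4 CPM in mock and between 40.9 and 41.8 CPM in JAZF1-SUZ12 libraries, mostly from MME. CPM is a gene's count divided by the library total and multiplied by 1000000. Of 6 macrophage or endothelial markers, CD14 had at most 3 counts, and the sum was between 47.2 and 53.2 CPM in mock and between 39.3 and 39.5 CPM in JAZF1-SUZ12 libraries. The lower sum came from CD68, at 39.3 CPM in mock and 25.1 CPM with JAZF1-SUZ12 (means, edgeR, adjusted p = 1.12e-05). PECAM1 was higher, at 10.6 and 13.6 CPM (means, edgeR, adjusted p = 0.157). VWF had 0 and 0 counts in mock against 7 and 10 with JAZF1-SUZ12 and was not tested. The part of these markers in the results was not tested. Across all genes tested with edgeR's quasi-likelihood test, 24.7% passed a Benjamini-Hochberg adjusted p of 0.05, with 13.3% higher and 11.4% lower in JAZF1-SUZ12 libraries. In bulk RNA of this kind, a change in the number of cells that express a gene and a change in RNA per cell cannot be told apart.

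Counts sufficed for a test in 39 of the 57 genes, and 15 of the 39 rose and 1 fell in JAZF1-SUZ12 libraries. The 15 that rose stand beside the 13.3% of all genes, and the single decrease beside the 11.4%. The members were chosen with earlier results of these data known, which can raise such shares. The genes that rose at least 2-fold were BMP6, SMAD1, TGFBI, CHRD, LTBP2 and INHA, where 5.55% of all genes passed the test and rose that far. The median log2 fold change was 0.33 over the 39 members and 0.0032 over all genes tested. These figures include 7 members that were above the filter level of 0.479 CPM in both JAZF1-SUZ12 libraries and not in both mock libraries. They entered the test through their JAZF1-SUZ12 counts. The 7 were BMP6, SMAD1, LTBP2 and TGFBI, which rose, and TGFBR2, SMAD9 and GREM1, which did not pass. Among the 32 members above that level in both mock libraries, 11 rose and 1 fell, or 37.5%, against 24.4% of all genes above it in both mock libraries. Their median was 0.13, against -0.014. The values of the 2 groups did not overlap for 28 of the 39 members, and the same was true of 61.0% of all genes tested. With DESeq2 in place of edgeR, 9 members rose and 1 fell, beside 9.19% and 7.13% of all genes, or 16.3% in either direction. Without mock replicate 1, edgeR called 9 members higher, and without JAZF1-SUZ12 replicate 2 it called 10.

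**Figure D1:**
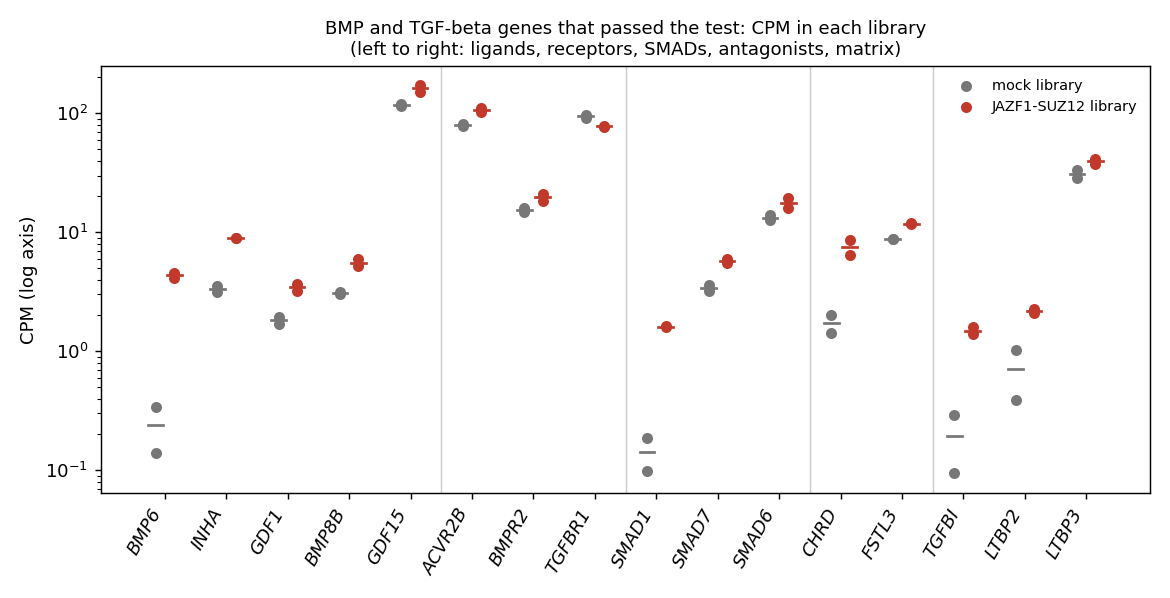
Level in CPM (log axis) of the 16 members that passed the test, with 1 point per library and a line at the mean of each group of 2. The groups do not overlap for any of the 16, which were picked by passing the test. Among all genes tested, the groups do not overlap for 61.0%. BMP6, SMAD1 and TGFBI lie below 0.4 CPM in both mock libraries and above 1.3 CPM in both JAZF1-SUZ12 libraries, and TGFBR1 is the 1 gene with lower values in JAZF1-SUZ12 libraries.

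BMP6, CHRD and INHA were the 3 members that changed at least 2-fold and passed with edgeR, with DESeq2 and in the authors' deposited table. Stretches before an annotated transcript start of each are shown because CpG-rich starts are the kind of sequence at which Polycomb complexes are known to gather. The sequences are those of RefSeq on GRCh38.p14, plus strand, 5′ to 3′, with each CpG in capitals. They cover chr6:7725849-7726098 for BMP6, chr3:184379804-184380053 for CHRD and chr2:219572060-219572194 for INHA. The INHA stretch ends just before a GENCODE 29 exon that begins at 219572195, while the RefSeq start is at 219572310 and the GENCODE gene as a whole begins at 219569162, so the stretch lies inside the annotated gene and need not be its promoter. The RefSeq start of BMP6 lies 698 bases before its first GENCODE exon, so the 2 annotations place this promoter differently.
BMP6: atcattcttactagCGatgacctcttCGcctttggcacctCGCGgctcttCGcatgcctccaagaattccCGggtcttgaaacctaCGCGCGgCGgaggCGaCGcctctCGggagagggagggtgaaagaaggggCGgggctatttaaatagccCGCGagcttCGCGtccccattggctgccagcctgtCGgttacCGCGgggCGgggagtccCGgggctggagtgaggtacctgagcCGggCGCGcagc
CHRD: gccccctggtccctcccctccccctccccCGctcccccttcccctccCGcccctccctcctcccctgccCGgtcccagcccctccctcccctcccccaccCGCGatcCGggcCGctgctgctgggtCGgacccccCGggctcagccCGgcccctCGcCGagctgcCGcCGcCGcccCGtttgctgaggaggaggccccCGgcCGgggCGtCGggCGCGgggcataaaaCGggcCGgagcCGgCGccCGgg
INHA: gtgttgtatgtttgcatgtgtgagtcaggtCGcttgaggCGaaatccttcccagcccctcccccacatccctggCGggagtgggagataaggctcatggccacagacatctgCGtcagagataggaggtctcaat
The BMP6 stretch holds 26 CpGs in 250 bases, an observed to expected ratio of 1.01, and the CHRD stretch holds 27 with a ratio of 0.715. The INHA stretch holds 4 CpGs in 135 bases and a ratio of 0.386. BMP6 and CHRD thus had nearly the same number of CpGs over the same length, and INHA had fewer.

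Of the 57 members, 48 have a RefSeq promoter window of 300 bases, which runs from 250 before to 50 after the start. The first listed window of each member was taken. The set of all windows was not reduced per gene or limited to genes tested here, so it is unlike the members' set. The median observed to expected CpG ratio was 0.789 in the 15 members that rose and 0.927 in the 20 tested members that did not pass, against 0.579 over all 35116 windows. Among the members that rose, INHA, SMAD1 and GDF15 had the lowest ratios, 0.318, 0.388 and 0.417. The palindrome GGCGCC, known as a BMP-responsive SMAD site, was in the window of 6 of the 15 that rose and of 8 of the 20 that did not pass, or 40.0% of each, against 19.2% of all windows. The members' windows were also richer in G and C, with a median of 69.3% against 58.7% over all windows. The SMAD box GTCTG, searched on both strands, was in 5 of the 15 and 10 of the 20 and in 45.3% of all windows. The GATA-type motif AGATAA, also searched on both strands, was in 1 of the 15 and in 10.3% of all windows. None of the 3 motifs is contained in another, and a match of letters is not evidence of binding.

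Among the 25 ligands, 5 of the 10 that were tested rose and none fell, where 13.3% of all genes rose. BMP6, 1 of the 5, entered the test through its JAZF1-SUZ12 counts. With DESeq2, 3 of the 10 passed, beside 16.3% of all genes. BMP6 (ENSG00000153162; chromosome 6, 7726797 to 7881422, plus strand), a BMP ligand that signals through SMAD1, SMAD5 and SMAD9, showed the largest fold change of any tested member. It had 7 and 3 counts in mock against 79 and 101 with JAZF1-SUZ12, or 0.342 and 0.141 CPM in mock and 4.58 and 4.14 CPM with JAZF1-SUZ12. Both JAZF1-SUZ12 libraries lay more than 10 times above the higher mock library. The fit gave a log2 change of 4.13 ± 0.43 (edgeR, adjusted p = 3.87e-06), where ± marks 1 standard error here and for each fitted fold change. Because mock replicate 2 had 3 counts, the ratio of summed counts per library size is given with its counting error, 18 (exact 95% interval from 9.58 to 38.2). Leaving out mock replicate 1 gave a log2 fold change of 4.87, leaving out mock replicate 2 gave 3.63, and the gene passed in each fit that left out 1 library.

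INHA (ENSG00000123999; chromosome 2, 219569162 to 219575713, plus strand) encodes the alpha subunit of inhibin, which opposes activin by pairing with its beta subunits. INHA was at 3.13 and 3.52 CPM in mock and 8.92 and 8.89 CPM with JAZF1-SUZ12, with a log2 change of 1.40 ± 0.19 (edgeR, adjusted p = 5.62e-05). The JAZF1-SUZ12 values differed from each other by less than those of mock, and the groups were far apart. OBSL1 overlaps INHA on the opposite strand and rose as well, by 0.54 on the log2 scale (edgeR, adjusted p = 3.07e-06). The activin beta subunits that inhibin needs were at or near the limit of counting, with INHBB at 0 counts in every library and INHBA at no more than 6. INHBE, a beta subunit known for its stress response in liver, was at 10.8 and 12.3 CPM in mock and 14.3 and 15.6 CPM with JAZF1-SUZ12 (edgeR, adjusted p = 0.0525), so that its groups did not overlap although it did not pass.

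GDF15, a divergent ligand induced by cell stress that signals through GFRAL, was the abundant ligand that rose. GDF15 (ENSG00000130513; chromosome 19, 18374731 to 18389176, plus strand) was at 116 and 119 CPM in mock and 152 and 173 CPM with JAZF1-SUZ12. The higher JAZF1-SUZ12 library was replicate 2, and both lay above both mock libraries. The fit gave a log2 change of 0.45 ± 0.06 (edgeR, adjusted p = 3.90e-05). BMP8B and GDF1 rose from low levels. BMP8B was at 3.13 and 3.05 CPM in mock and 5.16 and 5.98 CPM with JAZF1-SUZ12 and GDF1 at 1.96 and 1.69 CPM in mock and 3.71 and 3.23 CPM with JAZF1-SUZ12, with log2 fold changes of 0.83 and 0.90 (edgeR, adjusted p = 0.0114 and 0.0336). Neither passed with DESeq2, where the adjusted p was 0.0534 and 0.121. BMP8B did not pass without JAZF1-SUZ12 replicate 2 (log2 fold change 0.73, adjusted p = 0.0964). GDF1 did not pass when any 1 of the 4 libraries was left out (adjusted p from 0.0602 to 0.141). Both counts are uncertain, since BMP8B is nearly identical to BMP8A and GDF1 shares a transcription unit with CERS1, which rose by 1.08 on the log2 scale (edgeR, adjusted p = 0.000446). OXCT2 overlaps BMP8B on the same strand. It had 25 and 28 counts in mock against 24 and 71 with JAZF1-SUZ12 and did not pass (log2 fold change 0.76, edgeR, adjusted p = 0.181). BMP8A itself did not pass, at 1.03 and 1.08 CPM in mock and 0.753 and 0.778 CPM with JAZF1-SUZ12 (edgeR, adjusted p = 0.514).

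TGFB1, the prototype of the family, had the highest CPM of the members and did not pass the test. TGFB1 was at 328 and 363 CPM in mock and 366 and 356 CPM with JAZF1-SUZ12, with overlapping groups and a log2 change of 0.04 ± 0.05 (edgeR, adjusted p = 0.598). GDF11, an activin-type ligand studied in red cell formation, was at 61.3 and 60.9 CPM in mock and 65.1 and 63.2 CPM with JAZF1-SUZ12 (log2 fold change 0.05, edgeR, adjusted p = 0.627). TGFB3 was at 1.22 and 1.83 CPM in mock and 1.27 and 1.47 CPM with JAZF1-SUZ12 and did not pass either (edgeR, adjusted p = 0.802). The other 15 ligands were not tested. INHBB, BMP2, BMP5, GDF3, GDF6 and GDF10 had 0 counts in all 4 libraries, and TGFB2, INHBA, BMP7, GDF5, NODAL and LEFTY2 had at most 6 in any. BMP4 had 8 and 9 counts in mock against 7 and 7 with JAZF1-SUZ12, and LEFTY1 had 6 and 10 counts in mock against 6 and 4 with JAZF1-SUZ12. GDF7 had 3 and 7 counts in mock against 6 and 19 with JAZF1-SUZ12, the highest count among the untested ligands. At these depths a count of 0 in the shallowest library allows up to 3 counts.

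Of the 12 receptors, 11 were tested, 2 rose and 1 fell, or 27.3%, near the 24.7% of all genes, and each change was under 1.5-fold. ACVR2B (ENSG00000114739; chromosome 3, 38453851 to 38493142, plus strand), a type II receptor for activins and GDF11, was at 81.1 and 78.7 CPM in mock and 104 and 110.1 CPM with JAZF1-SUZ12. Both JAZF1-SUZ12 libraries lay above both mock libraries, with a log2 change of 0.40 ± 0.06 (edgeR, adjusted p = 8.93e-05). TGFBR1 (ENSG00000106799; chromosome 9, 99104038 to 99154192, plus strand), the type I receptor for TGF-beta, was the only tested member that fell. TGFBR1 was at 91.6 and 97.3 CPM in mock and 77.3 and 77.6 CPM with JAZF1-SUZ12, with a log2 change of -0.31 ± 0.06 (edgeR, adjusted p = 0.00108). It passed in each fit that left out 1 library, with log2 fold changes between -0.35 and -0.26. BMPR2, the type II receptor for BMPs, was at 16 and 14.7 CPM in mock and 20.9 and 18.4 CPM with JAZF1-SUZ12 (log2 fold change 0.33, edgeR, adjusted p = 0.0441). It did not pass with DESeq2 (adjusted p = 0.178) or limma-voom (0.0524), nor without JAZF1-SUZ12 replicate 1 (log2 fold change 0.22), mock replicate 1 (0.39) or mock replicate 2 (0.27).

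The remaining receptors did not pass. Of the type I receptors, ACVR1 was at 32.4 and 33.9 CPM in mock and 36.7 and 36.6 CPM with JAZF1-SUZ12 (edgeR, adjusted p = 0.25). ACVR1B was at 17.1 and 19.3 CPM in mock and 21.6 and 21.7 CPM with JAZF1-SUZ12 (edgeR, adjusted p = 0.116), and for both genes the groups did not overlap. BMPR1A was at 26.3 and 22.3 CPM in mock and 27.1 and 23.5 CPM with JAZF1-SUZ12, with overlap (edgeR, adjusted p = 0.874). TGFBR3, or betaglycan, a co-receptor that presents TGF-beta and inhibin, was at 32.5 and 32.1 CPM in mock and 32.2 and 32.1 CPM with JAZF1-SUZ12 (edgeR, adjusted p = 0.802). TGFBR2, the type II receptor without which TGF-beta cannot signal through TGFBR1, was scarce, with 12 and 10 counts in mock against 17 and 36 with JAZF1-SUZ12. Its log2 fold change of 1.21 had a standard error of 0.51 and did not pass (edgeR, adjusted p = 0.0962). ENG and ACVRL1, receptors best known from endothelium, were at 2.85 and 1.51 CPM in mock and 3.66 and 1.99 CPM in JAZF1-SUZ12 libraries (means, edgeR, adjusted p = 0.359 and 0.481). ACVR2A was at 3.09 ± 0.351 CPM and 2.86 ± 0.118 CPM (SD, n = 2 each; edgeR, adjusted p = 0.774). BMPR1B had at most 5 counts and was not tested.

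**Figure D2:**
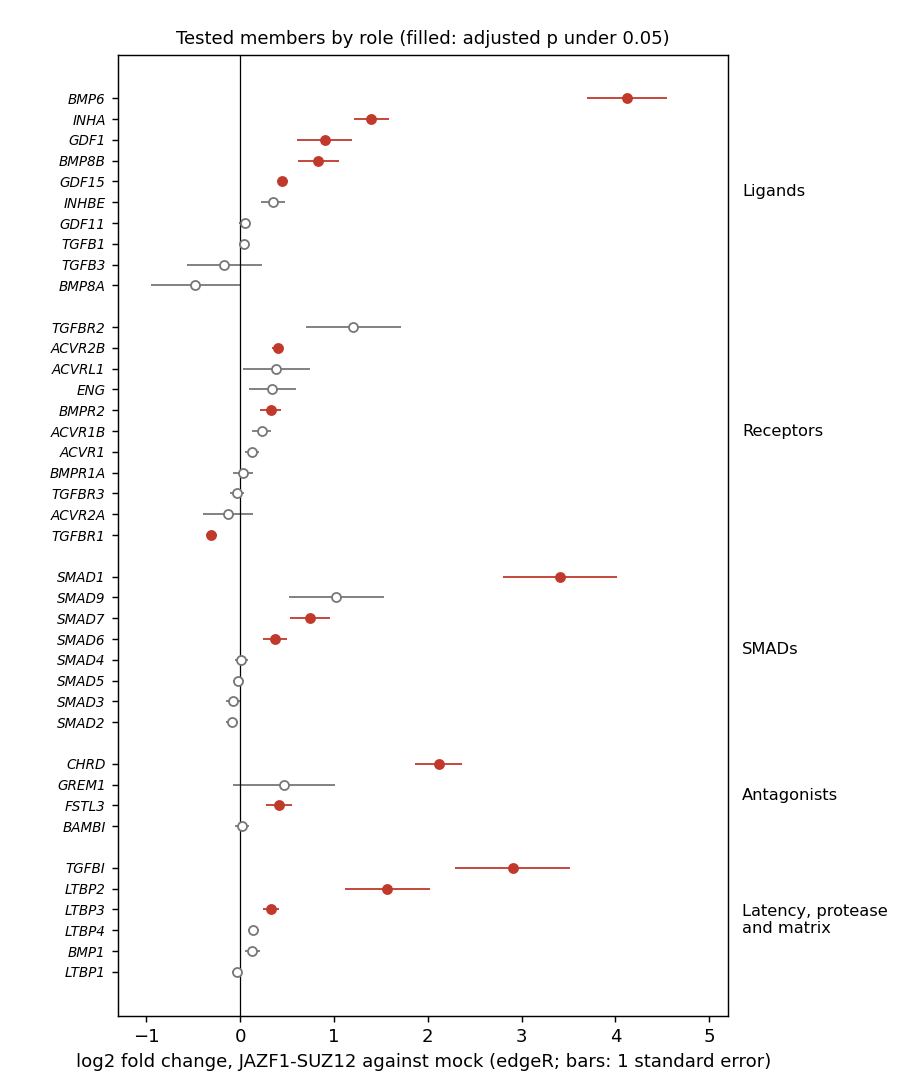
Log2 fold change (edgeR), JAZF1-SUZ12 over mock, for the 39 tested members, arranged by role, with bars of 1 standard error and filled points where the adjusted p was under 0.05. BMP6, SMAD1, TGFBI and CHRD lie beyond 2 on the log2 scale, and the filled point on the negative side is TGFBR1.

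All 8 SMAD genes were tested, of which 3 rose and none fell, or 37.5% beside the 24.7% of all genes. SMAD1 and SMAD9, 2 of the 8, entered the test through their JAZF1-SUZ12 counts. With DESeq2, 1 of the 8 passed, beside 16.3% of all genes. SMAD1 (ENSG00000170365; chromosome 4, 145481194 to 145558079, plus strand), a mediator of BMP signals, had 2 and 4 counts in mock against 28 and 39 with JAZF1-SUZ12. In CPM it was at 0.0978 and 0.188 CPM in mock and 1.62 and 1.6 CPM with JAZF1-SUZ12, so that every JAZF1-SUZ12 value lay above every mock value. The fit gave a log2 change of 3.41 ± 0.61 (edgeR, adjusted p = 7.05e-04), and the ratio of summed counts per library size was 11.2 (exact 95% interval from 4.88 to 31.6). SMAD1 passed in each fit that left out 1 library. In the authors' deposited table its log2 fold change was 2.74 and its adjusted p was 0.124.

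SMAD6 and SMAD7, the inhibitory SMADs and well-known targets of the pathway itself, were both higher. SMAD7 was at 3.57 and 3.24 CPM in mock and 5.56 and 6.02 CPM with JAZF1-SUZ12, with a log2 change of 0.75 ± 0.21 (edgeR, adjusted p = 0.0171). SMAD6 was at 13.9 and 12.7 CPM in mock and 19.3 and 15.9 CPM with JAZF1-SUZ12, with a log2 change of 0.37 ± 0.13 (edgeR, adjusted p = 0.0405). Neither passed with DESeq2 (adjusted p = 0.0796 for SMAD7 and 0.149 for SMAD6). SMAD7 did not pass without JAZF1-SUZ12 replicate 2 (log2 fold change 0.70) or mock replicate 2 (0.69). SMAD6 did not pass with limma-voom (adjusted p = 0.0533), nor without JAZF1-SUZ12 replicate 1 (0.22), mock replicate 1 (0.45) or mock replicate 2 (0.31).

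The 4 SMADs above 20 CPM did not pass. SMAD5, the main BMP-responsive SMAD in these cells by level, was at 78.3 and 72.1 CPM in mock and 75.4 and 75.1 CPM with JAZF1-SUZ12 (log2 fold change -0.02). SMAD2 was at 53.8 and 53 CPM in mock and 48.7 and 52.7 CPM with JAZF1-SUZ12 (-0.09). SMAD3 was at 40.7 and 43.2 CPM in mock and 41.1 and 39.8 CPM with JAZF1-SUZ12 (-0.08). SMAD4, the common partner, was at 50.6 and 47.7 CPM in mock and 47.8 and 52.5 CPM with JAZF1-SUZ12 (0.01). Their adjusted p (edgeR) was 0.839 for SMAD5, 0.333 for SMAD2, 0.476 for SMAD3 and 0.921 for SMAD4. SMAD9 had 8 and 18 counts in mock against 21 and 33 with JAZF1-SUZ12 and did not pass (edgeR, adjusted p = 0.159).

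Of the 6 antagonists, 4 were tested, of which 2 rose and none fell, where 13.3% of all genes rose. GREM1, 1 of the 4, entered the test through its JAZF1-SUZ12 counts. CHRD (ENSG00000090539; chromosome 3, 184380073 to 184390736, plus strand) encodes chordin, which binds BMPs outside the cell and keeps them from their receptors. CHRD had 29 and 43 counts in mock against 111 and 212 with JAZF1-SUZ12, or 1.42 and 2.02 CPM in mock and 6.43 and 8.68 CPM with JAZF1-SUZ12. The lower JAZF1-SUZ12 library was more than 3 times the higher mock library. The fit gave a log2 change of 2.12 ± 0.25 (edgeR, adjusted p = 1.60e-05), and the gene passed in each fit that left out 1 library, with log2 fold changes between 1.89 and 2.40. THPO overlaps CHRD on the opposite strand and did not pass (log2 fold change 0.49, edgeR, adjusted p = 0.415). FSTL3, a follistatin-like protein that binds activins, was at 8.71 and 8.78 CPM in mock and 11.9 and 11.8 CPM with JAZF1-SUZ12, with a log2 change of 0.41 ± 0.14 (edgeR, adjusted p = 0.0379). Its replicates were close, but it did not pass with DESeq2 (adjusted p = 0.17) or when any 1 library was left out (adjusted p from 0.0932 to 0.108). BAMBI, a receptor-like protein without a kinase domain, was at 42.6 and 37.6 CPM in mock and 39.7 and 42.5 CPM with JAZF1-SUZ12, with overlapping groups (edgeR, adjusted p = 0.893). GREM1 had 16 and 10 counts in mock against 18 and 18 with JAZF1-SUZ12 (edgeR, adjusted p = 0.581). NOG had 2 counts in 1 JAZF1-SUZ12 library and 0 in the others, and FST had between 0 and 11.

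All 6 genes of latency, proteolysis and matrix were tested, and 3 rose, where 13.3% of all genes rose. TGFBI and LTBP2, 2 of the 3, entered the test through their JAZF1-SUZ12 counts. TGFBI (ENSG00000120708; chromosome 5, 136028895 to 136063818, plus strand), a matrix protein named for its induction by TGF-beta, had 6 and 2 counts in mock against 24 and 39 with JAZF1-SUZ12. In CPM it was at 0.293 and 0.0939 CPM in mock and 1.39 and 1.6 CPM with JAZF1-SUZ12, with a log2 change of 2.90 ± 0.61 (edgeR, adjusted p = 0.00246). The ratio of summed counts per library size was 7.89 (exact 95% interval from 3.77 to 19.1). The size depended on the mock libraries, with 3.90 when mock replicate 1 was left out and 2.32 when mock replicate 2 was, and TGFBI passed in both. LTBP2, a matrix protein related to the latent TGF-beta binding proteins, had 8 and 22 counts in mock against 39 and 51 with JAZF1-SUZ12, with a log2 change of 1.57 ± 0.46 (edgeR, adjusted p = 0.0194). LTBP2 did not pass without mock replicate 1 (log2 fold change 1.05, adjusted p = 0.143), and without mock replicate 2 its log2 fold change was 2.44.

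LTBP3, which carries latent TGF-beta, was at 28.7 and 33.2 CPM in mock and 37.3 and 41.4 CPM with JAZF1-SUZ12, with a log2 change of 0.33 ± 0.08 (edgeR, adjusted p = 0.00948). It did not pass without JAZF1-SUZ12 replicate 2 (0.26) or mock replicate 1 (0.23). LTBP4 was at 141 and 157 CPM in mock and 160.5 and 172 CPM with JAZF1-SUZ12 (log2 fold change 0.14, edgeR, adjusted p = 0.0913). LTBP1 was at 138 and 138 CPM in mock and 132 and 141 CPM with JAZF1-SUZ12 (-0.03, adjusted p = 0.684). BMP1, a protease that cleaves chordin and procollagens and is no BMP by structure, was at 31.3 and 33.3 CPM in mock and 33.3 and 38 CPM with JAZF1-SUZ12 (0.13, edgeR, adjusted p = 0.279). These 3 did not pass.

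Levels were compared between genes per transcript length, as RPKM over the median length of a gene's protein-coding transcripts in GENCODE 29. The 2 highest members were TGFB1, at 125 ± 8.92 RPKM in mock and 130.3 ± 2.68 RPKM in JAZF1-SUZ12 libraries, and GDF15, at 97.8 ± 1.92 RPKM and 135 ± 12.3 RPKM (SD, n = 2 each). TGFB1 stood above GDF15 in mock by more than the spread, and in JAZF1-SUZ12 libraries the 2 differed by less than their spread. LTBP4 followed at 30.1 ± 2.33 RPKM in mock (SD, n = 2). Next came SMAD3 at 27.4, LTBP1 at 27 and BAMBI at 21.4 RPKM. TGFBR1, at 16.2 RPKM in mock, was the highest receptor, whereas TGFBR2 was at 0.115 RPKM. In mock, SMAD1 was at 0.0726, BMP6 at 0.0869 and TGFBI at 0.101 RPKM. These 3 were under the filter level in both mock libraries, and genes that low in mock could be tested only where they were higher with JAZF1-SUZ12. In JAZF1-SUZ12 libraries BMP6 reached 1.57 ± 0.112 RPKM and CHRD 2.23 ± 0.47 RPKM (SD, n = 2 each), levels near those of BMPR2 at 2.03 ± 0.181 RPKM and BMPR1A at 2.25 ± 0.223 RPKM (SD, n = 2 each).

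**Figure D3:**
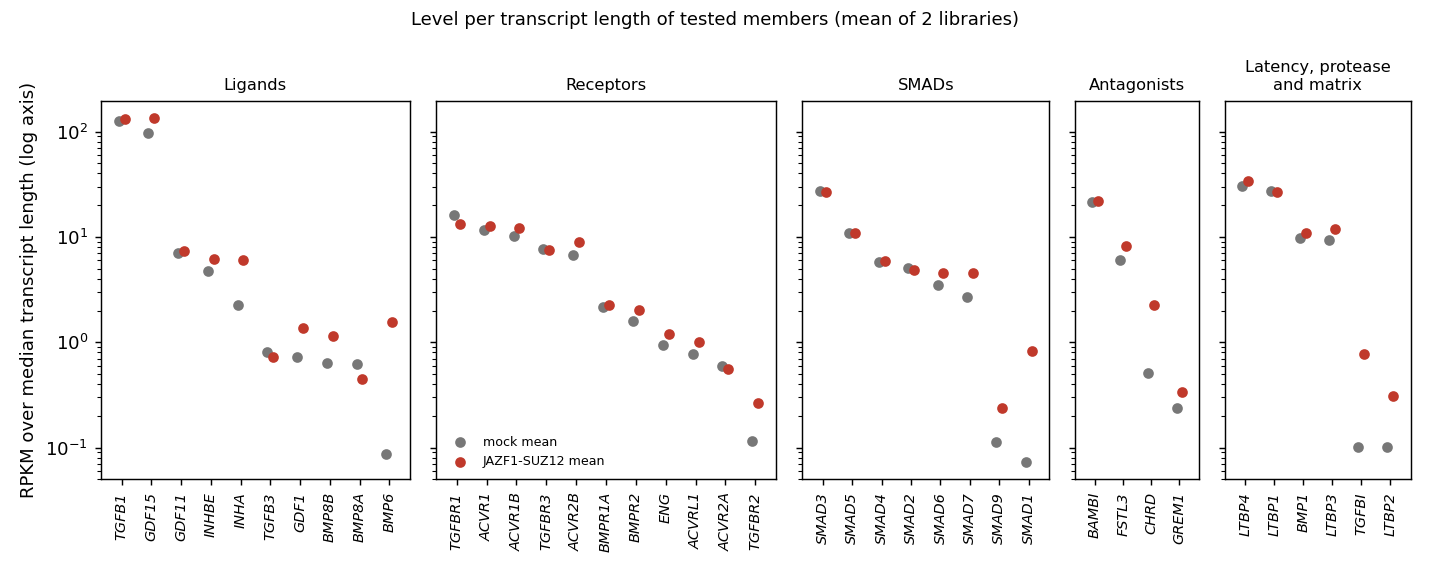
Mean level per transcript length (RPKM, log axis) of the 39 tested members by role, for mock and JAZF1-SUZ12 libraries (2 each), ordered by the mock level within a role. TGFB1 and GDF15 lie highest, and the widest gaps between the groups are those of BMP6, SMAD1 and TGFBI.

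A further 84 genes of the pathway that are not among the 57 were examined in 5 lists, chosen with earlier results of these data known. Of these, 60 were tested, and 16 rose and 6 fell, or 36.7%, beside 24.7% of all genes. The median log2 fold change of the 60 was 0.11. These figures include 5 genes above the filter level in both JAZF1-SUZ12 libraries and not in both mock libraries. All 5 entered the test through their JAZF1-SUZ12 counts, and GDF2, PMEPA1 and ATOH8, which rose, were among them. With DESeq2, 17 of the 60 passed, beside 16.3% of all genes. The choice of the lists can raise such shares, and by how much was not tested. Of 8 other ligands, 5 were tested and only GDF2, or BMP9, passed, with 5 and 8 counts in mock against 31 and 42 with JAZF1-SUZ12 and a log2 change of 2.45 ± 0.52 (edgeR, adjusted p = 0.00249).

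Of 9 other receptors and co-receptors, 6 were tested, 1 rose and 1 fell, or 33.3% beside the 24.7% of all genes. Both genes that passed tether latent TGF-beta to the cell surface. LRRC32, or GARP, had 23 and 25 counts in mock against 57 and 97 with JAZF1-SUZ12, with a log2 change of 1.64 ± 0.32 (edgeR, adjusted p = 0.00133). NRROS was at 13.3 and 14.6 CPM in mock and 10.1 and 10.1 CPM with JAZF1-SUZ12, with a log2 change of -0.49 ± 0.13 (edgeR, adjusted p = 0.0114). NRROS did not pass with DESeq2 (adjusted p = 0.0588) or without mock replicate 2 (log2 fold change -0.41). Of 16 other antagonists and binding proteins, 7 were tested, 2 rose and 1 fell, or 42.9% beside the 24.7% of all genes. NBL1, a BMP antagonist of the DAN family, was at 2.74 and 4.18 CPM in mock and 16.5 and 15.7 CPM with JAZF1-SUZ12, with a log2 change of 2.19 ± 0.18 (edgeR, adjusted p = 3.28e-07). TMEFF1, a membrane protein with follistatin domains, was at 7.14 and 6.2 CPM in mock and 14.5 and 12 CPM with JAZF1-SUZ12, with a log2 change of 0.96 ± 0.16 (edgeR, adjusted p = 3.68e-04). SOSTDC1, a secreted antagonist of BMP and WNT signals, was at 32.8 and 27 CPM in mock and 17.1 and 19.2 CPM with JAZF1-SUZ12, with a log2 change of -0.73 ± 0.10 (edgeR, adjusted p = 9.55e-05). NBL1 and SOSTDC1, both antagonists of BMPs, thus changed in opposite directions.

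Of 25 SMAD partners and regulators, 23 were tested, 4 rose and 3 fell, or 30.4%, near the 24.7% of all genes, with a median log2 fold change of -0.03. SKIL, a SMAD co-repressor that is itself induced by TGF-beta, was at 26.7 and 25.7 CPM in mock and 48.9 and 51.7 CPM with JAZF1-SUZ12, with a log2 change of 0.92 ± 0.07 (edgeR, adjusted p = 1.82e-07). PMEPA1, another TGF-beta target that restrains SMAD2 and SMAD3, had 1 and 3 counts in mock against 19 and 33 with JAZF1-SUZ12. The fit gave a log2 change of 3.59 ± 0.71 (edgeR, adjusted p = 0.00159), and the ratio of summed counts per library size was 13 (exact 95% interval from 4.79 to 49.6). Leaving out mock replicate 1 gave 3.06 for PMEPA1, and leaving out mock replicate 2 gave 4.48. PCSK6, a convertase that matures ligand precursors, was at 49.3 and 46.3 CPM in mock and 57.9 and 60.5 CPM with JAZF1-SUZ12 (log2 fold change 0.29, edgeR, adjusted p = 0.00387). STRAP, which binds SMAD7 and the receptors, was at 147 and 152 CPM in mock and 124 and 119.6 CPM with JAZF1-SUZ12, with a log2 change of -0.31 ± 0.05 (edgeR, adjusted p = 4.33e-04). The other 3 that passed, named after their values were seen, were WWP1, higher, and SKI and TOB1, lower, all by less than 0.3 on the log2 scale. None of these 3 passed with DESeq2, and SKI and TOB1 did not pass when any 1 library was left out. WWP1 did not pass without JAZF1-SUZ12 replicate 2 (0.26) or mock replicate 1 (0.23).

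Of 26 genes known to respond to the pathway, 19 were tested, 8 rose and 1 fell, or 47.4% beside the 24.7% of all genes. ATOH8, 1 of the 8, entered the test through its JAZF1-SUZ12 counts. The list was chosen with earlier results of these data known, which can raise such a share. The matrix genes FN1 and COL1A1 had the smallest p-values. FN1 was at 46.2 and 43.1 CPM in mock and 108 and 109.8 CPM with JAZF1-SUZ12, with a log2 change of 1.27 ± 0.06 (edgeR, adjusted p = 1.15e-09). COL1A1 was at 5.18 and 6.39 CPM in mock and 21.4 and 21.3 CPM with JAZF1-SUZ12, with a log2 change of 1.86 ± 0.14 (edgeR, adjusted p = 8.75e-08). Both are also stromal genes. The stromal or uterine marker sum was higher with JAZF1-SUZ12, mostly from MME, at 19.4 CPM in mock and 33.5 CPM with JAZF1-SUZ12 (means). PGR and ESR1 were higher as well. PDGFRA, with 5 and 6 counts in mock against 3 and 0 with JAZF1-SUZ12, and THY1, with 5 and 6 against 1 and 4, were lower. DCN overlapped between the groups, LUM was at 0 and COL3A1 did not exceed 3 counts. The part of stromal expression in the values of FN1 and COL1A1 was not tested. The cell cycle inhibitor CDKN1A was at 35 and 31.6 CPM in mock and 64.2 and 58.8 CPM with JAZF1-SUZ12, with a log2 change of 0.86 ± 0.08 (edgeR, adjusted p = 5.85e-07). TSC22D1, first cloned as a TGF-beta-stimulated gene, was at 25 and 24.5 CPM in mock and 38.3 and 43.1 CPM with JAZF1-SUZ12, with a log2 change of 0.70 ± 0.08 (edgeR, adjusted p = 1.05e-05). All 4 respond to many other signals besides TGF-beta.

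The other 5 response genes that passed, named after their values were seen, were ATOH8, HAMP, KLF10 and GADD45B, higher, and ID1, lower. The 10 that were tested and did not pass had log2 fold changes between -0.36 and 0.34. ATOH8 had 0 and 1 counts in mock against 15 and 22 with JAZF1-SUZ12, with a log2 change of 4.88 ± 0.99 (edgeR, adjusted p = 0.00188), and its ratio of summed counts per library size was 37.1, with an exact 95% interval from 6.25 to 1502. Leaving out mock replicate 1 gave 4.06 for ATOH8. Leaving out mock replicate 2 leaves mock at 0 counts, where the fitted 7.20 is no bound. HAMP, which encodes hepcidin, had 26 and 29 counts in mock against 60 and 72 with JAZF1-SUZ12, with a log2 change of 1.25 ± 0.32 (edgeR, adjusted p = 0.00927). HAMP did not pass without JAZF1-SUZ12 replicate 1 (log2 fold change 1.12, adjusted p = 0.0551). ID1, the best-known immediate target of BMP-activated SMADs, was at 61 and 61.9 CPM in mock and 44.1 and 42.3 CPM with JAZF1-SUZ12 and fell, with a log2 change of -0.53 ± 0.06 (edgeR, adjusted p = 2.14e-05). KLF10 rose by 0.37 and GADD45B by 1.09 on the log2 scale (edgeR, adjusted p = 6.86e-04 and 0.0221). GADD45B did not pass with DESeq2 (adjusted p = 0.0797), nor without JAZF1-SUZ12 replicate 1 (0.95), mock replicate 1 (1.10) or mock replicate 2 (1.09).

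**Figure D4:**
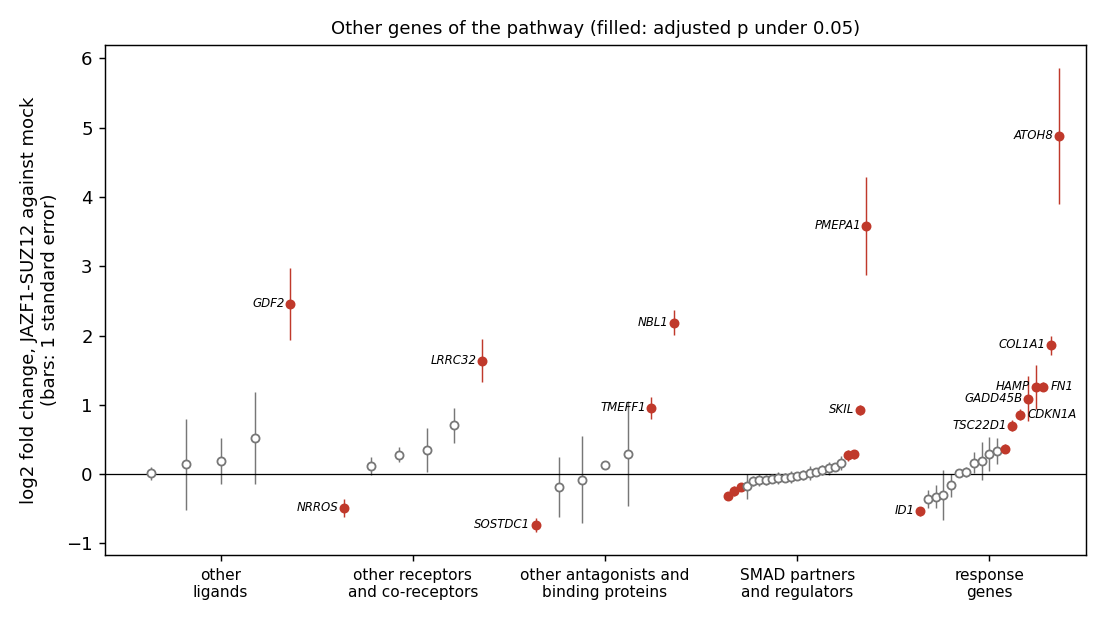
Log2 fold change (edgeR), JAZF1-SUZ12 over mock, for the 60 tested genes of the 5 further lists, with bars of 1 standard error, filled points where the adjusted p was under 0.05, and names for the filled points beyond 0.45 in size. The lowest filled points are SOSTDC1, ID1 and NRROS, and the highest are ATOH8, PMEPA1 and GDF2.

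The authors' deposited table gave an adjusted p for 42 of the 57 members and called 5 of them, or INHA, BMP6, GDF15, ACVR2B and CHRD, beside 8.5% of all genes with an adjusted p there. All 5 were called here and had the same direction. Its log2 fold changes were 4.15 for BMP6, 2.32 for CHRD, 1.31 for INHA, 0.44 for GDF15 and 0.39 for ACVR2B, in the authors' deposited table. Of the 16 members called here, 15 had the same sign there and LTBP3 did not, at -0.0013 in the authors' deposited table. For TGFBI the authors' deposited table gave 1.29, and for LTBP2 0.60, both smaller than from the counts and not called there. Over the 39 tested members, 8 had the opposite sign in the authors' deposited table, of which LTBP3 was the 1 called here. Of the 22 other pathway genes called here, all had the same sign in the authors' deposited table and 12 were called there. The 10 not called there were GDF2, NRROS, LRRC32, SKI, WWP1, TOB1, PMEPA1, PCSK6, GADD45B and FN1. Their values in the authors' deposited table include 1.69 for PMEPA1 (adjusted p = 0.624), 1.01 for LRRC32 (0.412) and 1.09 for FN1 (0.0741). Among the other pathway genes, RGMA (1.48, adjusted p = 0.0158) and ZFYVE16 (-0.52, 0.0404) were called in the authors' deposited table and not here. From the counts, RGMA was at 0.70 and ZFYVE16 at -0.04 on the log2 scale (edgeR, adjusted p = 0.0517 and 0.812). Why the 2 analyses differ was not tested.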

How the data were processed

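RNA from 4 K562 libraries was measured by poly(A)-selected, directional RNA-seq, per the labels' protocols. The authors deposited estimated counts per gene, not normalized, per the file headers. The share of values that are not whole is 33.9% to 37.4%, depending on the library. The submitters' processing notes name fastp 0.20.1, kallisto 0.46.2, DESeq2 1.30.1 and hg38, with no role or order, and how transcripts were summed to genes is not given in the sources used here. The authors' deposited table holds, per the file headers, log2 fold changes with standard errors and p-values, raw and adjusted. Reads can be divided between near-identical or overlapping genes, and use of strand in counting is not stated.

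Estimated counts were rounded, since the design had assumed whole counts. Genes were kept with filterByExpr (14750), scaled with TMM, and compared across all genes with edgeR's quasi-likelihood test (edgeR 4.0.16, R 4.3.3), two-sided, group as the only term, with Benjamini-Hochberg adjustment and a threshold of 0.05. CPM is the rounded count divided by the library total times 1000000. Intervals of ratios are exact (Clopper-Pearson) at 95% and, like the floor of 3 counts, cover counting error only. Alternatives were DESeq2 1.42.0, limma-voom (limma 3.58.1), other scalings and filters, the replicate number as a block, and leaving out each library. On simulated counts edgeR recovered 199 of 200 genes changed 2-fold among 14670 tested, with 12 false calls. DESeq2 recovered 192 of the same 200, with 1 false call. The 200 changed genes were drawn from those with a mean of at least 50 counts, and a common dispersion was used for all genes. No changed gene therefore had few counts. The simulation therefore cannot say how well changes like those of BMP6, SMAD1, TGFBI, LTBP2, PMEPA1 and ATOH8 are recovered. Replicates differed by more than sampling noise (chi-square per degree of freedom 3.61 in mock and 3.86 in JAZF1-SUZ12). Positions are from GENCODE 29 (GRCh38), which holds 35410 of the 35606 gene IDs.

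The members and lists were chosen with earlier results of these data known. Every member is accounted for, members that passed or reached 20 CPM are given by library, and of each further list up to 4 called genes with the smallest p-values are given. Other genes named from these lists were chosen after their values were seen.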

Additional observations from a re-analysis of the deposited data

How the results depend on the processing

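With DESeq2 in place of edgeR, 2407 genes were called against 3643, and 9 members rose against 15. The members that no longer passed were BMP8B, GDF1, BMPR2, SMAD6, SMAD7 and FSTL3. The cause was not tested. TGFBR1 was the 1 member called lower in all 7 alternatives with all libraries and in all 4 fits that left out 1 library. In those 4 fits the lone library of a group is assumed to vary like the other group. They called from 2455 to 3734 genes, from 9 to 13 members higher, 1 member lower and from 18 to 19 of the other pathway genes. The fewest members, 9, were called higher without mock replicate 1.

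Same-numbered libraries did not deviate together (r = -0.00072 across 14750 genes). With a replicate block, 4061 genes, 16 members higher, 1 lower and 22 other pathway genes were called. It added LTBP4 and removed no member. With limma-voom, BMPR2 (adjusted p = 0.0524) and SMAD6 (0.0533) no longer passed. INHBE passed with limma-voom, with total counts only and with a mean of at least 50 counts, and LTBP4 with the last of these. Both also passed without JAZF1-SUZ12 replicate 1, and LTBP4 without mock replicate 2.

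The direction changed for 7 members that were not called, given as log2 fold changes with the range over the 4 fits that left out 1 library: TGFB1 (-0.026 without mock replicate 1, range -0.026 to 0.13), TGFB3 (0.16 without mock replicate 2, range -0.42 to 0.16), ACVR2A (0.0025 without mock replicate 2, range -0.24 to 0.0025), BMPR1A (-0.082 without JAZF1-SUZ12 replicate 1 and -0.079 without mock replicate 2, range -0.082 to 0.16), SMAD4 (-0.048 without JAZF1-SUZ12 replicate 2 and -0.022 without mock replicate 2, range -0.048 to 0.063), SMAD5 (9.5e-04 with total counts only and 0.0028 with mean of at least 50 counts and 0.042 without mock replicate 1, range -0.072 to 0.042) and BAMBI (-0.020 without JAZF1-SUZ12 replicate 2 and -0.061 without mock replicate 2, range -0.061 to 0.11). No called member changed direction in the alternatives in which it was fitted, and a mean of at least 50 counts left 10 of the 39 tested members without a value. Of the members, 18 had too few counts for a test, which limits what can be said of most ligands.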
